A study of Mus musculus with 27 samples.

Results

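The imprinted Dlk1-Dio3 domain of mouse chromosome 12 carries small nucleolar RNAs (snoRNAs), and 12 of them had an entry in the deposited small RNA table. They were found by position: every entry of class snoRNA that starts within a 260 kb stretch of the GRCm38 genome holding Meg3, Rian and Mirg. The table has 1013 entries, of which 239 are snoRNAs, so 227 snoRNA entries lie elsewhere. The stretch also holds 71 miRNA entries. All 12 members, AF357425, Gm24895, DQ267100, DQ267101, Gm26922, DQ267102, AF357428, Gm23736, AF357341, Gm22981, Gm25856 and Gm25854, match snoRNA genes of the GENCODE M21 annotation at the same coordinates on the + strand. GENCODE places 23 snoRNA genes in the stretch, and the other 11 were not analysed here.

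Imprinted genes are transcribed from the copy inherited from 1 parent. In this domain the maternal copy gives rise to long noncoding RNAs, Meg3, Rian and Mirg, while the paternal copy gives rise to the protein-coding genes Dlk1, Rtl1 and Dio3. The noncoding transcripts are hosts: miRNAs and C/D box snoRNAs are cut out of them. C/D box snoRNAs are bound by fibrillarin and usually guide the 2'-O-methylation of ribosomal RNA, but those of this domain have no known ribosomal RNA target and are classed as orphan snoRNAs.

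Small RNA was sequenced from chromatin, from soluble nucleoplasm and from cytoplasm, each taken from 3 kinds of mouse cells. mESC stands for E14 cells, an embryonic stem cell line kept on gelatin with LIF. mNPC is 1 neural progenitor line established in the submitting laboratory, kept in medium with B27, EGF and FGF. mCtx are cortical neurons in primary culture for 5 days, a preparation that can hold other cells. Each of the 9 groups has 3 libraries, 27 in all, which the labels call biological replicates. Nothing says that they came from separate cultures or animals. A p-value here reflects how libraries vary within groups, pooled over the 9 groups, and that variation may be technical. No genotype is given. RNA shorter than 200 nt was depleted of ribosomal RNA before library construction.

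The lists of marker miRNAs for stem cells, neurons and neural cells were highest in the cells so labelled. The list for embryonic stem cells (miR-290 to miR-295, miR-302 and miR-367, with 8 of its 11 families in the table) summed to 19860 to 93870 RPM in mESC libraries and to 0 in mNPC and mCtx libraries. The neuron list (5 families) summed to 16630 to 49340 RPM in mCtx and 354 to 1413 RPM in mNPC, where miR-124 and miR-137 were at 0. In mESC it summed to 52.0 to 977 RPM, overlapping mNPC, with miR-137 alone at 0, so miR-124 was listed there. The list for neural cells summed to at least 116900 RPM in every mNPC and mCtx library and to at most 1249 RPM in mESC. Of other cells, the endothelium and mesenchyme list (3 families) was lowest in mNPC, as the members were: it summed to 949 to 7524 RPM in mESC, 112 to 344.5 RPM in mNPC and 2192 to 3975 RPM in mCtx, with miR-145a at 0 in mNPC and mCtx. The microglia and blood list, with miR-142a alone of its 4 families in the table, summed to 126 to 1774 RPM in mESC, 0 in mNPC and 0 to 44.5 RPM in mCtx. The oligodendrocyte list (2 families) summed to 0 in mESC, 0 to 288 RPM in mNPC and 50.2 to 101 RPM in mCtx. The part of these cells in the results was not tested.

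Values are RPM, reads scaled to a fixed library total. Nothing was listed below a lowest value that differed between libraries, from 5.16 to 59.1 RPM, and a 0 in the table does not show that an RNA was absent. Some zeros stand beside high values. Where both other libraries of a group held an entry at 10 times the lowest listed value of a library or more, that library listed the entry at 0 in 72 of 5326 cases (1.35%), and 2 of those 72 are members, AF357428 in mESC chromatin replicate 1 and Gm23736 in mCtx chromatin replicate 2. Mean levels of members are therefore given only for groups with all 3 libraries above 0. Depth was not recovered from the values. An RPM value counts reads on an entry and does not tell the full-length snoRNA from fragments of it.

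The sequences below show how alike the members are, which bears on how far reads can be assigned to 1 of them; they are GENCODE M21 transcripts of the GRCm38 genome, with the C box TGATGA and the D box CTGA in capitals. The first 5 form a family in which each sequence is at least 70% identical to another of the family, with pairs from 66.7% to 92.0%.
AF357428 (chr12:109679945-109680013, + strand): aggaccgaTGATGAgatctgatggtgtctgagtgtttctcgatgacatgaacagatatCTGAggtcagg
AF357341 (chr12:109681519-109681593, + strand): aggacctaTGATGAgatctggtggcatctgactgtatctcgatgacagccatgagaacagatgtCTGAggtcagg
Gm23736 (chr12:109680800-109680874, + strand): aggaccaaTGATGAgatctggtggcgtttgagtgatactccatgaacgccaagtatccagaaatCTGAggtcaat
Gm22981 (chr12:109682384-109682458, + strand): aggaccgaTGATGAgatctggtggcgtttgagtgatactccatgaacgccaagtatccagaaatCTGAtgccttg
Gm25856 (chr12:109682994-109683068, + strand): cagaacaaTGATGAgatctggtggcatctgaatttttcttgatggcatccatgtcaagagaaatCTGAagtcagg
Gm23736 and Gm22981 are 92.0% identical, and the 12 nt before their D boxes, where a C/D box snoRNA pairs with its target, are the same letters. AF357428 and AF357341 are 82.7% identical.

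The next 4 are the 3 members without such a relative in the region and DQ267100, 1 of the family it forms with DQ267101, Gm26922 and DQ267102, whose pairs are 76.4% to 83.6% identical.
AF357425 (chr12:109636012-109636084, + strand): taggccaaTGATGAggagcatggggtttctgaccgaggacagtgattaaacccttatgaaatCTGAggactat
Gm24895 (chr12:109646129-109646202, + strand): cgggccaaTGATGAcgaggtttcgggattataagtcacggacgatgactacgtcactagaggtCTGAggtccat
DQ267100 (chr12:109649617-109649688, + strand): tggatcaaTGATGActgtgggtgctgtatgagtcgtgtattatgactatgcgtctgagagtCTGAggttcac
Gm25854 (chr12:109686798-109686869, + strand): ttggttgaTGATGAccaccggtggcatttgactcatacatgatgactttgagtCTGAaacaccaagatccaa
Both boxes, searched on the transcript strand with the C box starting by position 16 and the D box within the last 25 nt, were present in 12 of 12 members. Among the 238 snoRNA entries with a GENCODE sequence, 112 had both (47.1%). These 238 include the 12 members and are not limited to C/D box snoRNAs. Of the 11 annotated snoRNAs of the stretch that were not analysed here, 2 had both (18.2%). The members are 69 to 75 nt long.

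Members fall at 2 places along the domain. AF357425, Gm24895, DQ267100, DQ267101, Gm26922 and DQ267102 lie inside Rian (chr12:109603940-109661716, + strand), 6 of the 13 snoRNA genes annotated there. AF357428, Gm23736, AF357341, Gm22981, Gm25856 and Gm25854 lie between the annotated ends of Rian and Mirg, 18.2 to 25.1 kb after the end of Rian, where GENCODE M21 has no other gene overlapping them. DQ267102 lies in an intron of the 4 Rian transcripts that span it, while both Rian transcripts that span Gm24895 have it in an exon. AF357425 is intronic in 5 of the 6 transcripts that span it.

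The snoRNAs of the domain were read in mESC and mCtx nuclei and were listed at 0 in all mNPC libraries and all cytoplasm libraries. In chromatin the 12 members together reached 1570, 4612 and 2833 RPM in the mESC libraries and 3417, 2893 and 3482 RPM in the mCtx libraries. In nucleoplasm they reached 162, 163 and 47.2 RPM in mESC and 107, 94.7 and 95.9 RPM in mCtx. The mESC and mCtx sums overlapped in both fractions, and every chromatin sum of these cells was above every nucleoplasm sum. As a share of all snoRNA reads, the members made up 0.368%, 1.14% and 0.844% in mESC chromatin and 1.83%, 1.69% and 1.85% in mCtx chromatin, so the shares did not overlap while the RPM sums did.

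**Figure D1:**
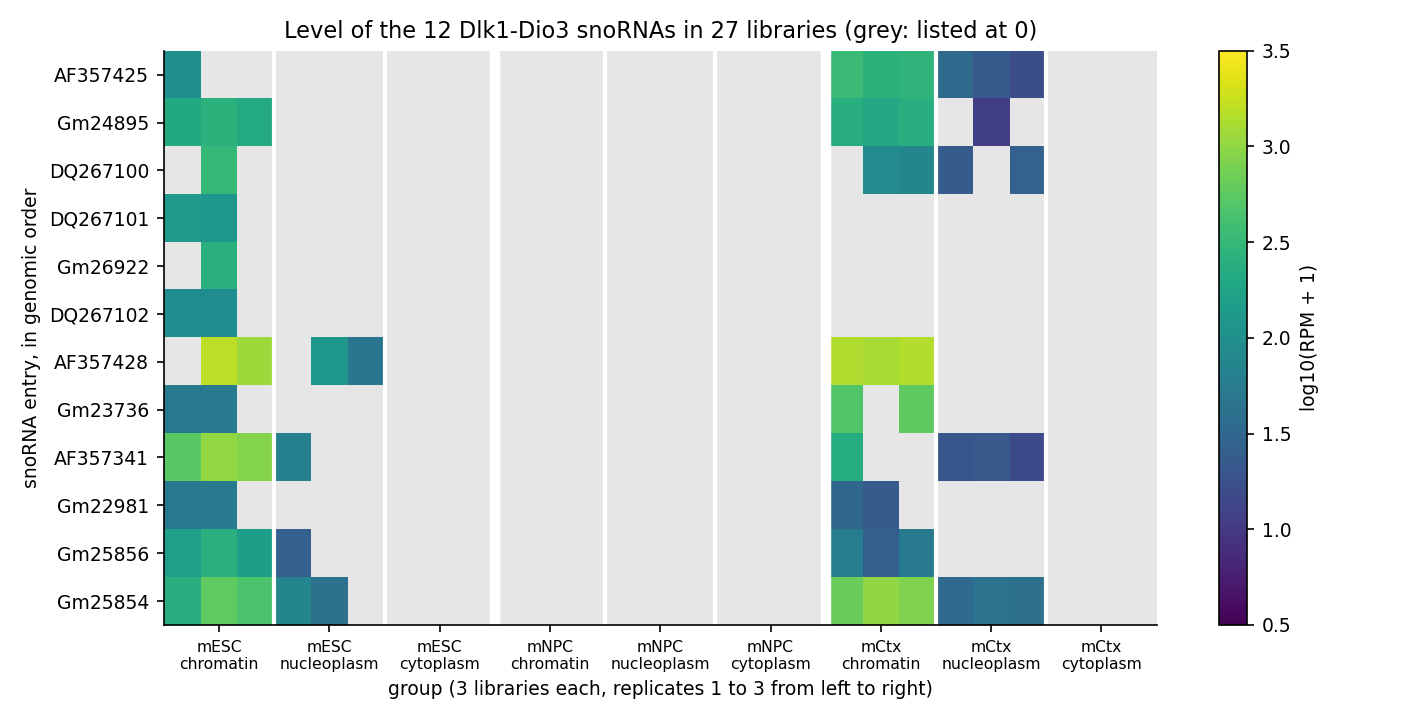
Heat map of log10(RPM + 1) for the 12 snoRNAs (rows, in genomic order) in 27 libraries (columns, 3 per group), with values listed at 0 in grey. Colour appears in mESC and mCtx chromatin and, lower, in their nucleoplasm; the 9 mNPC and all cytoplasm columns are grey throughout.

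Along the domain the highest chromatin levels lay beyond Rian. By mean RPM per kilobase of transcript, AF357428 stood at 19720 in mCtx chromatin, rank 25 of the 239 snoRNA entries, and Gm25854 at 11550, rank 40. In mESC chromatin AF357341 stood at 10790, rank 75, and Gm25854 at 5931, rank 97. AF357428 is given no mean there, being at 0 in mESC replicate 1. At 1590.3 and 1159 RPM in replicates 2 and 3, it was above every mESC chromatin library of AF357341. Inside Rian, Gm24895 stood at 3128 in mESC chromatin (rank 119) and 3095 in mCtx chromatin (rank 78). AF357425 stood at 4122 RPM per kilobase in mCtx chromatin, rank 73. The ranks are of means over 3 libraries, in which other entries can hold zeros. Of the 239 snoRNA entries, 199 were above 0 in mESC chromatin and 146 in mCtx chromatin. A rank in mESC is therefore not comparable with a rank in mCtx.

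**Figure D2:**
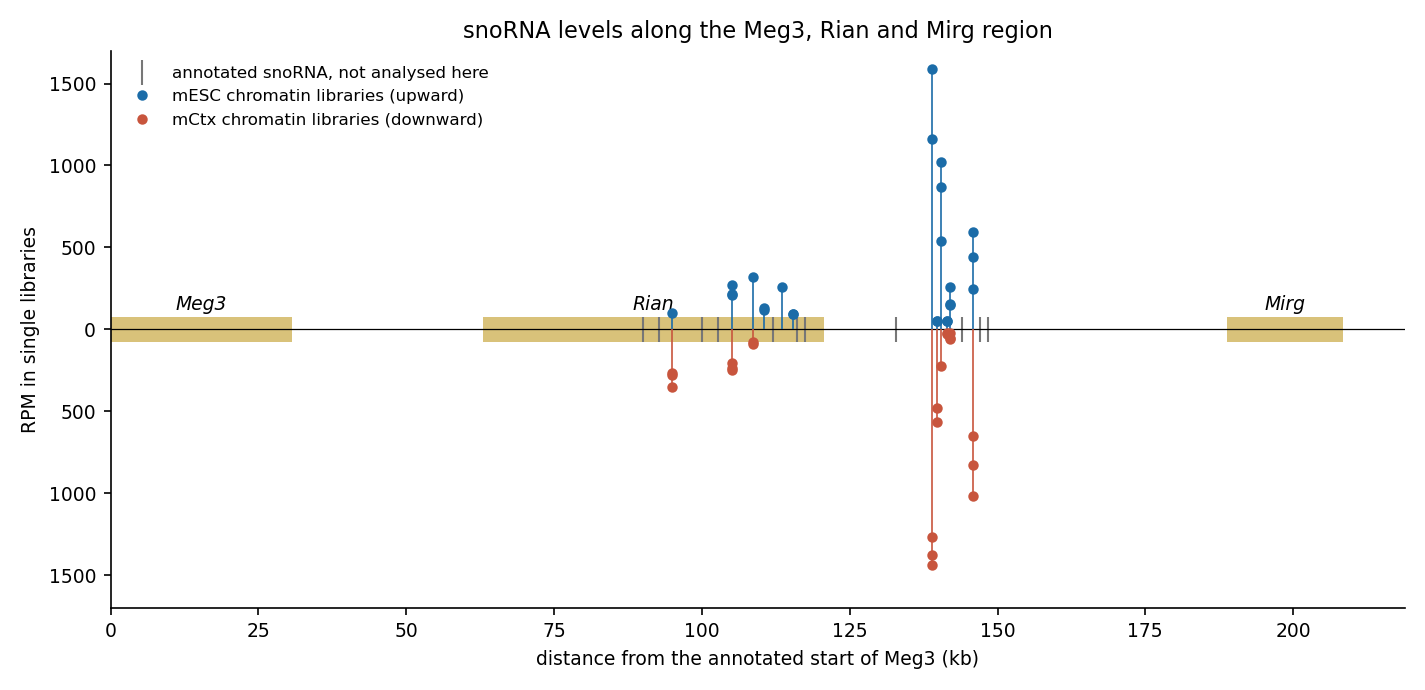
RPM of each snoRNA in the single libraries of mESC chromatin (points upward) and mCtx chromatin (points downward), zeros not drawn, against distance from the annotated start of Meg3 in kb; boxes are Meg3, Rian and Mirg, lines reach the highest library, and grey ticks are annotated snoRNAs not analysed here. The highest points of both cell types stand between Rian and Mirg.

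Changes were tested with limma on log2(RPM + 1) over the 851 entries that reached 1 RPM in 3 or more of the libraries, and an adjusted p under 0.05 over all of them was the threshold. Of the 12 members 9 entered the test. DQ267101, Gm26922 and DQ267102 did not, being above 0 in 2, 1 and 2 libraries. With members at 0 in all mNPC and cytoplasm libraries, the 9 passed this filter only through mESC and mCtx chromatin and nucleoplasm. Their counts against mNPC or cytoplasm are therefore descriptions, and the shares of all entries beside them do not test an excess. A log2 difference from a group at 0 depends on the pseudocount and is no bound on the fold change. The spread of an entry was estimated jointly over all 9 groups. Groups at 0 add no spread, so the estimate can be smaller than that of the groups compared alone. In these bulk samples, fewer cells of a type and less RNA per cell cannot be told apart. The words fell and rose compare groups of cells and follow no culture over time. With mESC and mNPC each being 1 line, traits of the line and of the cell type cannot be told apart.

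From mESC to mNPC, most tested snoRNAs of the domain fell in chromatin. Of the 9 tested members 6 fell and none rose, where 29% of all tested entries fell and 15.9% rose. The median difference of the 9 was -6.94 on the log2 scale, beside 0 over all tested entries. The other snoRNAs moved in both directions, with 55 of 187 lower and 20 higher. AF357425, DQ267100 and Gm23736 did not pass (log2 differences -2.21, -2.77 and -3.80, adjusted p = 0.0943, 0.231 and 0.0674 in limma). AF357425 passed without mESC chromatin replicate 2 or 3 (adjusted p = 0.0136 and 0.013), its values there being 98.1, 0 and 0 RPM.

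AF357341 had the largest of the 6 differences. It was at 541, 1021 and 866 RPM in mESC chromatin (809 ± 245, SD, n = 3) and at 0 in the 3 mNPC chromatin libraries. The groups did not overlap, and the log2 difference was -9.61 (SE 1.52, adjusted p = 1.81e-05 in limma). Gm25854, at 249, 592 and 440.2 RPM in mESC chromatin (427 ± 172, SD, n = 3) and 0 in mNPC, fell by 8.65 (SE 0.92, adjusted p = 8.95e-08 in limma).

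Gm24895, inside Rian, varied little between libraries. Its mESC chromatin values were 209, 268 and 217 RPM (231.5 ± 32.0, SD, n = 3) and its mNPC values 0, a log2 difference of -7.85 (SE 0.57, adjusted p = 1.83e-10 in limma). All 3 mESC libraries were thus above the highest lowest-listed value of mNPC chromatin, 59.1 RPM. Gm25856, at 153, 255 and 151 RPM in mESC chromatin (186 ± 59.7, SD, n = 3), fell by 7.5 (SE 0.77, adjusted p = 4.66e-08 in limma).

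For AF357428 and Gm22981 single libraries weigh more. AF357428 was at 0, 1590.3 and 1159 RPM in mESC chromatin and fell by 6.94 (SE 1.86, adjusted p = 0.0041 in limma). The 0 of mESC replicate 1 stands beside 2 of the highest member values. With that library left out AF357428 fell by 10.41 (adjusted p = 1.98e-07 in limma).

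Gm22981 was low, at 50.2, 52.0 and 0 RPM, and fell by 3.80 (adjusted p = 0.00891 in limma). Its mESC values lie under the highest lowest-listed value of mNPC chromatin. The call was lost without mESC chromatin replicate 1 (-2.86, adjusted p = 0.0659) or replicate 2 (-2.84, adjusted p = 0.0672). With every value under 59.1 RPM set to that value, 5 members fell.

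The 3 members outside the test were read in mESC chromatin alone. DQ267101 was at 129, 117 and 0 RPM, Gm26922 at 0, 258 and 0 RPM, and DQ267102 at 90.9, 90.4 and 0 RPM. Their relative DQ267100 was at 0, 316 and 0 RPM in mESC chromatin. All 4 were thus at 0 in mESC chromatin replicate 3, where AF357428 and AF357341 were high.

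From mNPC to mCtx, members rose in chromatin. Of the 9 tested, 7 rose and none fell, where 16% of all tested entries rose and 11.9% fell. The median difference was 6.02 on the log2 scale, beside 0 over all tested entries, and 13 of the 187 other snoRNAs rose while 32 fell. This comparison shares the mNPC libraries with the one before, and since these are at 0 each difference is the mean log2(RPM + 1) of the other group. With mNPC at 0, no member could rise in the first comparison or fall in the second. The 9 had also entered the test only through mESC and mCtx libraries.

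AF357428 was the highest member in mCtx chromatin. Its mCtx chromatin values were 1374.5, 1269 and 1439.9 RPM (1361 ± 86.0, SD, n = 3), and it rose by 10.41 (SE 1.86, adjusted p = 0.000162 in limma). Gm25854 was at 649.9, 1016 and 829 RPM (832 ± 183, SD, n = 3) and rose by 9.68 (SE 0.92, adjusted p = 3.08e-08 in limma). For both, every mCtx library was more than 10 times above the lowest listed values of mNPC chromatin.

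Inside Rian, AF357425 and Gm24895 rose. AF357425 was at 352, 269.5 and 281 RPM in mCtx chromatin (301 ± 44.6, SD, n = 3; log2 difference 8.23, SE 1.03, adjusted p = 1.86e-06 in limma). Gm24895 was at 246, 205 and 236 RPM (229 ± 21.4, SD, n = 3; log2 difference 7.84, adjusted p = 3.03e-10 in limma). The groups did not overlap for either. AF357425 and Gm24895 each have a near-identical copy on another chromosome, with similar or equal mCtx chromatin values. Neither rise can be given to the copy inside Rian alone.

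The other 3 that rose were Gm25856, Gm23736 and Gm22981. Gm25856, at 57.9, 24.0 and 51.5 RPM, rose by 5.41 (adjusted p = 8.86e-06 in limma), and this call was lost with every value under 59.1 RPM set to that value. Gm23736, at 482, 0 and 569 RPM, rose by 6.02 (adjusted p = 0.00743 in limma), and the call was lost without mCtx chromatin replicate 1 (4.58, adjusted p = 0.057) or replicate 3 (4.46, adjusted p = 0.0655). Gm22981, at 29.5, 22.2 and 0 RPM, rose by 3.16 (adjusted p = 0.0448 in limma) and passed in 7 of its 16 alternatives, with the call lost without any mNPC chromatin library and without mCtx chromatin replicate 1 or 2 (adjusted p from 0.0867 to 0.22).

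AF357341 and DQ267100 did not pass. AF357341 was at 226, 0 and 0 RPM in mCtx chromatin (log2 difference 2.61, adjusted p = 0.255 in limma). DQ267100 was at 0, 86.9 and 75.3 RPM (4.24, adjusted p = 0.0808 in limma).

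**Figure D3:**
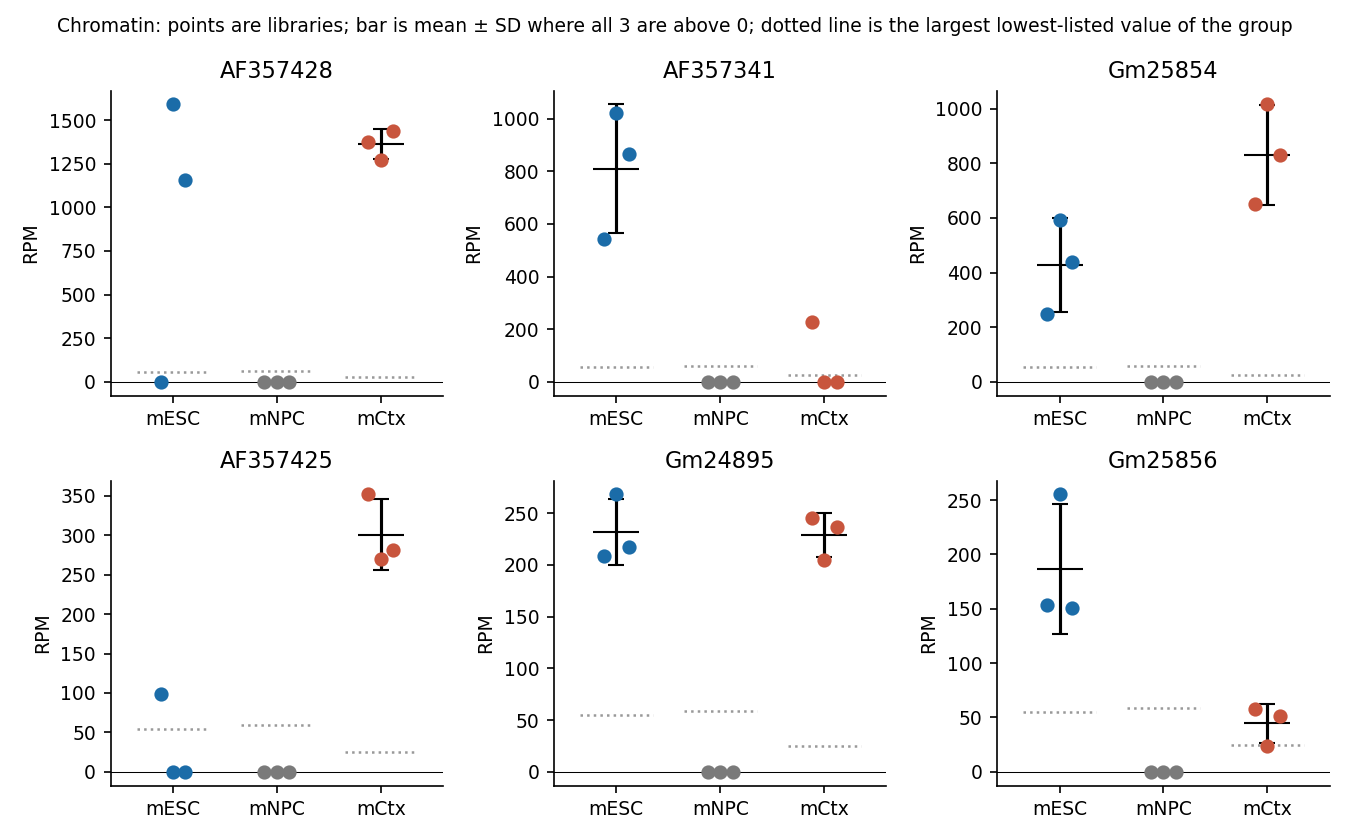
RPM of 6 snoRNAs in the chromatin libraries of mESC, mNPC and mCtx; points are libraries, the bar is the mean ± SD where all 3 are above 0, and the dotted line is the largest of the 3 lowest listed values of the group. All mNPC points are at 0, AF357341 is high in mESC, and AF357425 is high in mCtx.

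Between mESC and mCtx, members moved in both directions in chromatin. Of the 9 tested, 1 rose and 2 fell, where 22.8% of all tested entries rose and 29.3% fell, so the share called was not above the background. AF357425 was at 98.1, 0 and 0 RPM in mESC chromatin against 269.5 RPM or more in mCtx and rose by 6.02 (SE 1.03, adjusted p = 4.34e-05 in limma). Gm22962, a near-identical copy on chromosome 9, was at 0 in mESC chromatin and at 349.5, 266 and 279 RPM in mCtx chromatin. This rise can therefore not be given to AF357425 alone. AF357341 fell by 7 (SE 1.52, adjusted p = 0.000541 in limma): its lowest mESC library, at 541 RPM, was above its highest mCtx library, at 226 RPM. Both calls were kept in all 17 of their alternatives, among them leaving out any 1 library and fitting the compared groups alone. Their adjusted p reached at most 0.0383 for AF357425 and 0.0406 for AF357341 in limma.

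Gm25856 fell by 2.09 from mESC to mCtx chromatin (SE 0.77, adjusted p = 0.0266 in limma), its groups not overlapping. That call was lost without mESC replicate 2 (-1.84, adjusted p = 0.0906) or mCtx replicate 2 (-1.71, adjusted p = 0.114), with pseudocount 0.1, with size factors and when values were scaled to snoRNA reads. Gm24895 differed by -0.01 (SE 0.57) and Gm25854 by 1.02 (SE 0.92, adjusted p = 0.402), with overlapping Gm24895 libraries and Gm25854 libraries that did not overlap. Another scaling changed the split: 1 rose and 1 fell when scaled to snoRNA reads or by size factors, and 1 rose and 3 fell when scaled to miRNA reads.

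The AF357428 family had overlapping sums in mESC and mCtx chromatin, and each of its 5 members was above 0 in both. AF357428, Gm23736, AF357341, Gm22981 and Gm25856 together summed to 794, 2970 and 2175 RPM in mESC chromatin and to 2170, 1316 and 2060 RPM in mCtx chromatin. In mESC replicates 2 and 3, AF357428 and AF357341 were both high, at 1590.3 and 1021 RPM and at 1159 and 866 RPM. In mCtx, AF357428 remained at 1269 RPM or more in each library while AF357341 was above 0 in 1 of 3, and Gm23736 reached 482 and 569 RPM in the libraries where it was listed. AF357428 did not pass between mESC and mCtx (3.47, adjusted p = 0.132 in limma). Without mESC replicate 1, the library at 0, its difference was 0, and without mESC replicate 2 or 3 it passed (5.32 and 5.09, adjusted p = 0.0263 and 0.0368). Gm23736 did not pass the test between mESC and mCtx (log2 difference 2.22, adjusted p = 0.292 in limma). With zeros beside 2 high replicates taken as missing, a choice made after seeing the data, it did (5.23, adjusted p = 0.000179).

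**Figure D4:**
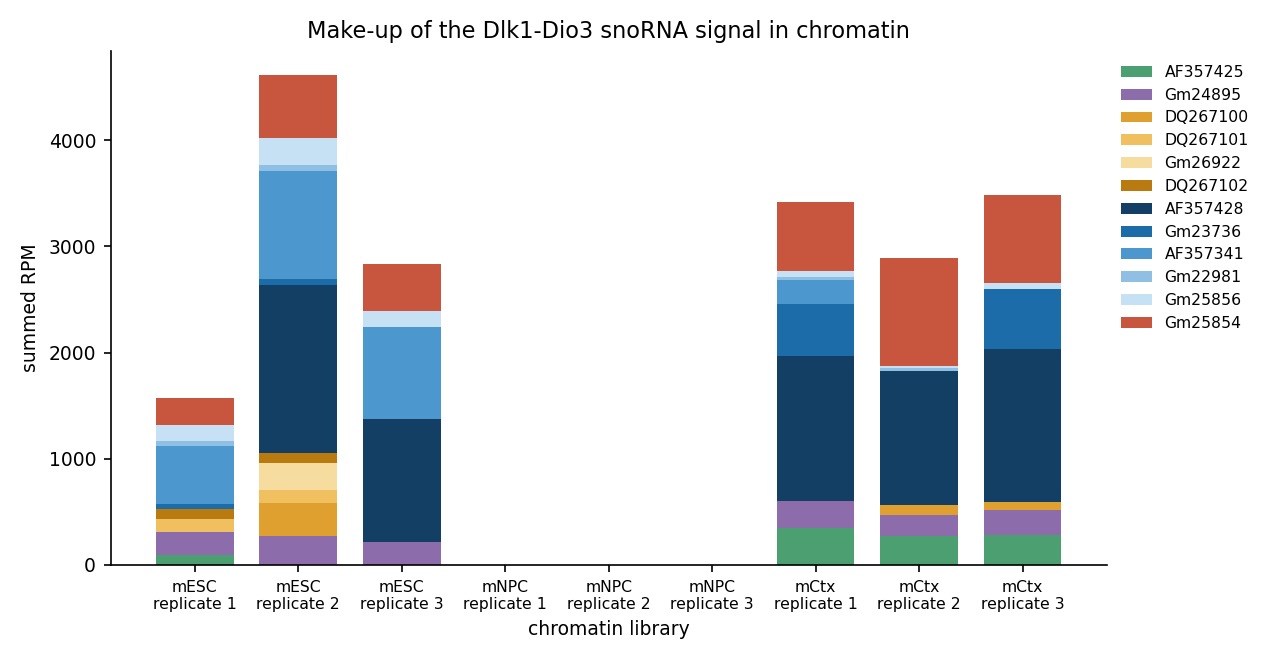
Summed RPM of the 12 snoRNAs in each chromatin library, stacked by member, with the AF357428 family in blue shades and the DQ267100 family in yellow shades. AF357341 takes a large part of the mESC bars and is seen in 1 mCtx bar, AF357425 is seen in the 3 mCtx bars and in mESC replicate 1, and the mNPC bars are empty.

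Some of these values cannot be given to 1 gene. Gm24895 and Gm24598, a snoRNA at chrX:64496584-64496657, are 97.3% identical and held the same value in 7 of the 7 libraries where Gm24895 was above 0. AF357425 and Gm22962, at chr9:68510163-68510235, are 94.5% identical and held the same value in 3 of 7 libraries. In mCtx chromatin Gm22962 was at 349.5, 266 and 279 RPM, beside 352, 269.5 and 281 RPM for AF357425. In mESC chromatin replicate 1 Gm22962 was at 0 and AF357425 at 98.1 RPM. Where values are shared, or nearly equal as for AF357425 in mCtx chromatin, the domain copy and the copy elsewhere cannot be told apart.

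Within the domain, Gm23736 and Gm22981 held the same value in 2 of 4 libraries, mESC chromatin replicates 1 and 2, and differed in mCtx. Of the 20-letter stretches of Gm24895, 61.8% occur in another annotated snoRNA, and of those of AF357425 35.2%. For Gm23736 and Gm22981 the share was 76.8% each, and for AF357428, AF357341 and Gm25856 it was 2.0%, 8.93% and 10.7%. For Gm25854 and the DQ267100 family it was 0. Without AF357425, Gm24895, Gm23736 and Gm22981, 5 tested members were left, of which 4 fell from mESC to mNPC chromatin and 3 rose from mNPC to mCtx chromatin.

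Most tested snoRNAs of the domain were higher in chromatin than in cytoplasm in mESC and mCtx, as were most other snoRNAs; since cytoplasm was at 0, none could be lower. In mESC, 6 of the 9 tested members were higher, Gm24895, AF357428, AF357341, Gm22981, Gm25856 and Gm25854, where 24.9% of all tested entries were higher and 29.5% lower. In mCtx, 7 were higher, AF357425, Gm24895, AF357428, Gm23736, Gm22981, Gm25856 and Gm25854, where 20.2% of all entries were higher and 23.9% lower. The mCtx call of Gm22981 passed in 10 of its 17 alternatives and was lost without any single cytoplasm library. Its mESC call was lost without chromatin replicate 1 or 2. With every value under 59.1 RPM set to that value, both calls of Gm22981 and the mCtx call of Gm25856 were lost. Of the 187 other snoRNAs tested, 77% were higher in mESC chromatin and 58.8% in mCtx chromatin, and the median differences of members and other snoRNAs were 6.94 and 7.96 in mESC and 6.02 and 6.38 in mCtx. AF357341 did not pass in mCtx (2.61, adjusted p = 0.19 in limma). In mNPC no member was above 0, while 68.4% of the 187 other snoRNAs were higher in chromatin than in cytoplasm. With the members at 0 in every mNPC library, no difference between mNPC fractions could be tested for them.

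Chromatin was also compared with nucleoplasm. In mESC, 5 of 9 members were higher in chromatin, Gm24895, AF357341, Gm22981, Gm25856 and Gm25854, and none lower, where 19.9% of all entries were higher and 30.9% lower. In mCtx, the 7 that were also above cytoplasm were higher and none of the 9 was lower, where 14.9% were higher and 17.2% lower. The mCtx count was 6 whichever of the 6 libraries was left out, and Gm22981 lost its call in 5 of these fits. Without chromatin replicate 1, Gm23736 and Gm22981 both lost their calls, and AF357341 was called lower. AF357341 was then at 0 in the chromatin libraries left and at 18.9, 20.5 and 13.9 RPM in nucleoplasm. The mCtx call of Gm23736 was lost without chromatin replicate 1 or 3, that of AF357425 was lost with pseudocount 0.1 (3.74, adjusted p = 0.0818), and that of Gm25854 in mESC was lost when scaled to snoRNA reads (3.08, adjusted p = 0.136). AF357428 was at 1269 RPM or more in mCtx chromatin and at 0 in the 3 mCtx nucleoplasm libraries, a log2 difference of 10.41 (adjusted p = 0.000194 in limma). Scaled to snoRNA reads, the mCtx split was 5 higher and 1 lower, AF357341 being lower (-7.01, adjusted p = 0.0145), while AF357425 (-0.08) and Gm25854 (0.60, adjusted p = 0.995) no longer passed. AF357341 was at -1.61 without that scaling and did not pass (adjusted p = 0.547). That scaling moved the median of all tested entries in this contrast from 0 to -3.43.

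The difference between chromatin and cytoplasm was itself compared between cells with an interaction term. In mCtx against mNPC it was higher for 5 of 9 members, AF357425, Gm24895, AF357428, Gm25856 and Gm25854, and lower for none, where 6.11% of all entries were higher and 11.2% lower. In mCtx against mESC it was higher for AF357425 and lower for AF357341, 2 of 9, where 22.3% of all entries were higher and 20.1% lower. With every member at 0 in cytoplasm, these values equal the chromatin differences.

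Nucleoplasm held few members above the lowest listed value. In mCtx nucleoplasm AF357425 was at 33.3, 21.3 and 15.5 RPM, AF357341 at 18.9, 20.5 and 13.9 RPM and Gm25854 at 32.8, 42.6 and 39.5 RPM. These 3 passed against mCtx cytoplasm, of 9 tested (all entries: 13.5% higher, 11.8% lower), and against mNPC nucleoplasm (all entries: 23.5% higher, 10.3% lower). The AF357341 call against cytoplasm (adjusted p = 0.0476 in limma) passed in 7 of its 18 alternatives. Its call against mNPC (adjusted p = 0.0375 in limma) passed in 9 of 17. Both were lost whichever of the libraries compared was left out. In mNPC nucleoplasm the lowest listed values were 30.2 to 34 RPM, so AF357341 could not have been listed there at its mCtx levels, nor AF357425 at its mCtx mean of 23.4 RPM or in 2 of its 3 libraries. The 3 values of AF357425 were those of Gm22962, its near-identical copy on chromosome 9, so they cannot be given to AF357425 alone. With every value under 59.1 RPM set to that value, none of the 3 passed in either comparison.

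In mESC nucleoplasm Gm25854 was at 72.2, 40.7 and 0 RPM and was the 1 member of 9 to pass, higher than in cytoplasm (3.86, adjusted p = 0.00462 in limma; 14% of all entries higher and 5.17% lower). It was also the 1 member that fell from mESC to mNPC nucleoplasm (-3.86, adjusted p = 0.0014; 35.8% of all entries lower and 12.8% higher). AF357428 was at 0, 122 and 47.2 RPM there and did not pass (-4.18, adjusted p = 0.072). From mESC to mCtx nucleoplasm AF357425 rose (4.54, adjusted p = 0.000912) and no other member passed, where 20.9% of all entries rose and 31.3% fell. The lowest listed values of mESC nucleoplasm, 15.7 to 27.1 RPM, lie within the AF357425 values of mCtx. Scaled to snoRNA reads that count was 4 higher and 1 lower. With every value under 59.1 RPM set to that value, both calls of Gm25854 (0.10 against cytoplasm, -0.10 from mESC to mNPC) and that of AF357425 from mESC to mCtx (0) were lost (adjusted p = 1 each in limma).

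In cytoplasm no member was above 0 in any of the 9 libraries, so no difference between cell types could be tested there. Other snoRNAs were listed in all cytoplasm libraries, from 3 entries in 1 mNPC library to 29 in 1 mESC library. Their mean sums were 3333 RPM in mESC cytoplasm and 549 RPM in mCtx cytoplasm, beside 385300 and 178700 RPM in chromatin. The lowest listed values in cytoplasm were 27.55 to 42.45 RPM in mESC and 8.4 to 18.6 RPM in mCtx. Members absent from cytoplasm and members below these values cannot be told apart.

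The pattern of being read in mESC and mCtx chromatin and in no mNPC library was common in the domain. Of the 12 members, 9 were above 0 in at least 1 mESC and 1 mCtx chromatin library and at 0 in all 9 mNPC libraries (75%), where 4.54% of all entries were. Of the 227 other snoRNAs 7 did so (3.08%): Snord12, Gm24598, Snord35b, Snord107, Snord34, Snord14a and Gm25117. Gm24598 is the copy with the values of Gm24895. At 0 in all 9 mNPC libraries were 12 of 12 members and 58 of 227 other snoRNAs (25.6%), where 42.4% of all entries were. The mNPC chromatin libraries listed 127 to 135 other snoRNAs each, summing to 205000 to 351600 RPM.

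The miRNAs of the same stretch shared the difference between cells but not that between fractions. They summed to 21970 RPM or more in every mESC library, to 38900 RPM or more in every mCtx library and to at most 269.6 RPM in mNPC. In chromatin 28 of the 60 tested fell from mESC to mNPC and none rose, and 31 rose from mNPC to mCtx and none fell. Of the 71 miRNA entries, 68 were at 0 in all 9 mNPC libraries (95.8%), where 42.4% of all entries were. Almost none could therefore rise in the first comparison or fall in the second. Against cytoplasm, 34 of 60 were lower in mESC chromatin and 1 higher, and 24 were lower in mCtx chromatin and 3 higher. miR-410-3p, at the Mirg end of the domain, was at 5760.2, 6621 and 5865 RPM in mCtx chromatin and 25001, 14925 and 15583 RPM in mCtx cytoplasm (log2 difference -1.57, adjusted p = 1.72e-06 in limma).

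**Figure D5:**
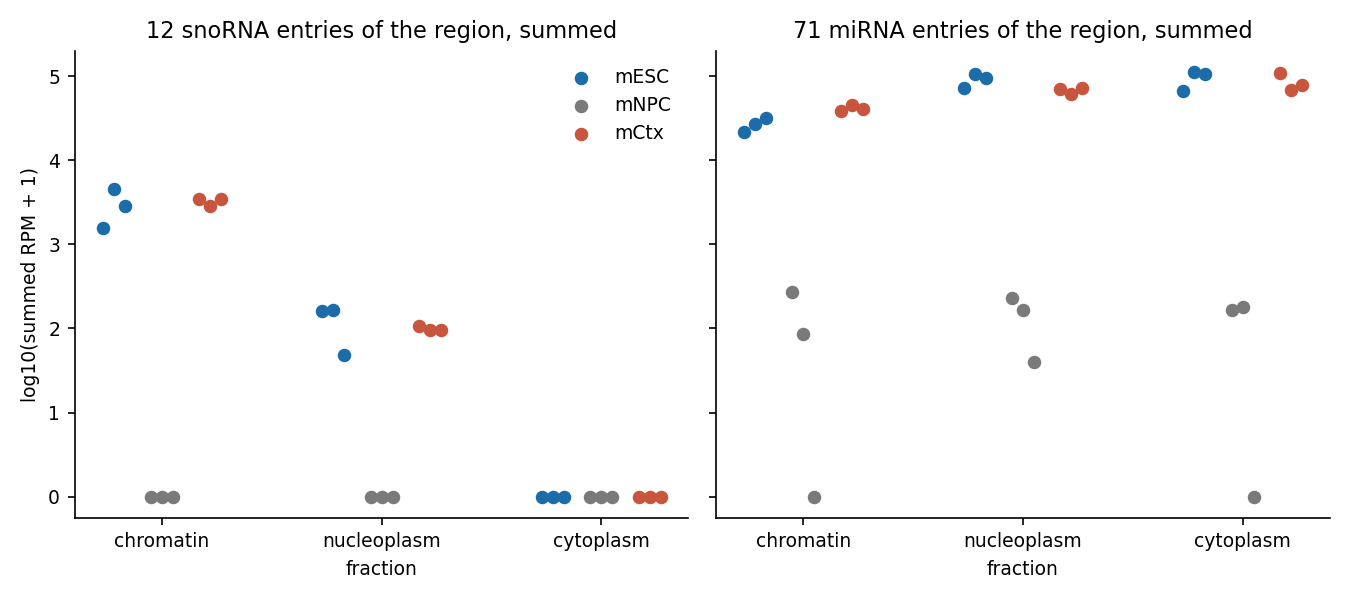
log10 of summed RPM + 1 of the 12 snoRNAs (left) and the 71 miRNAs (right) of the stretch in each library, by fraction, coloured by cell type. mNPC points lie lowest in both panels, level with the other cells for snoRNAs in cytoplasm, while the snoRNA sums go to 0 in cytoplasm and the miRNA sums of mESC and mCtx do not.

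Another imprinted region with C/D box snoRNAs, Snurf-Snrpn on chromosome 7, had 3 snoRNA entries. Snord107 was at 71.8, 90.4 and 87.7 RPM in mESC chromatin, 67.3, 86.9 and 50.2 RPM in mCtx chromatin and 0 in mNPC, and fell from mESC to mNPC (-6.39, adjusted p = 1e-09 in limma). Snord64 was at 792, 959 and 567 RPM in mNPC chromatin and did not pass between mNPC and mESC (1.77, adjusted p = 0.127). It rose from mESC to mCtx chromatin by 4.09 (adjusted p = 0.000659), with mCtx values from 3738 to 3831 RPM. Gm25156 was above 0 in 1 library.

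Over the 27 libraries, the entries whose RPM ranked most like the summed RPM of the members were Snord107 (Spearman rho 0.838), miR-409-3p of the same domain (0.819), Gm24598 (0.806), Snord111 (0.80) and Snord1a (0.799). These are descriptions over 27 libraries, with these entries and the members at 0 in every cytoplasm library and the members at 0 in every mNPC library. Gm24598 held the values of the member Gm24895, so its rho is partly built in. miR-409-3p, from the miRNA cluster of the Mirg part of the domain, was at 435, 601 and 564 RPM in mESC chromatin, 177, 198 and 128.05 RPM in mCtx chromatin and 0 in every mNPC and cytoplasm library. Snord1a was at 721 to 1105 RPM in mNPC chromatin, where the members were at 0.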

How the data were processed

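The deposited table gives RPM values per small RNA entry and library, scaled by the authors to a fixed library total; per the labels' protocols, libraries of 120 to 160 bp were read as 100 bp single reads. Not given in the sources used here: the aligner and the rule for reads that match several copies. Listed values summed to 73.9% to 97.4% of that total per library, so depth is unknown; with the lowest value taken as 10 reads, 2.91% to 77.3% of low values came within 0.02 of a whole read, and reads were not recovered. Entries were grouped by the labels and tested with limma 3.58.1 (R 4.3.3; trend, robust) on log2(RPM + 1), 1 mean per group, 18 residual degrees of freedom and 20 contrasts, with Benjamini-Hochberg adjustment over 851 entries. The procedure was tested on simulated data. The rule for named entries took every member; of other entries, the 5 most like the members' sum, the 4 highest miRNAs of the stretch, the 3 highest other snoRNAs and all Snurf-Snrpn snoRNAs could be named. Sequences come from GENCODE M21 (GRCm38, the build whose coordinates matched). The members and lists were chosen with earlier results of these data known. The labels name no batch. There were 14 alternative settings beside leaving out each library.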

Additional observations from a re-analysis of the deposited data

Results flagged for a closer look

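In 7 cases the difference between chromatin and cytoplasm itself differed between cell types (limma interaction, adjusted over 851 entries). Since every member was at 0 in cytoplasm, each value equals the chromatin difference between the cells, with a larger standard error. In mCtx against mNPC the interaction was 8.23 for AF357425 (adjusted p = 0.000358), 7.84 for Gm24895 (adjusted p = 2e-07) and 10.41 for AF357428 (adjusted p = 0.0084). It was 5.41 for Gm25856 (adjusted p = 0.00117) and 9.68 for Gm25854 (adjusted p = 1.26e-05). These 5 of 9 members stand beside 6.11% of all tested entries with a higher interaction and 11.2% with a lower one. In mCtx against mESC it was 6.02 for AF357425 (adjusted p = 0.00259) and -7 for AF357341 (adjusted p = 0.0135), where 22.3% of all entries were higher and 20.1% lower. Scaled to snoRNA reads, AF357341 gave -7.57 and did not pass (adjusted p = 0.0716). With every value under 59.1 RPM set to that value, the Gm25856 interaction no longer passed.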

How the results depend on the processing

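The direction of a comparison with mNPC or cytoplasm was fixed, since every member was at 0 there. Members passed the filter only through the other groups. The filter of 9 libraries left Gm25854 as the 1 member tested: it was called (count 1) in both chromatin comparisons with mNPC, in the mCtx nucleoplasm comparisons with mNPC and with cytoplasm, in chromatin against cytoplasm and against nucleoplasm of mESC and mCtx, and in the interaction with mNPC, and not (0) in mCtx against mESC in chromatin, nucleoplasm or the interaction. Without the 4 members with near-identical copies, chosen after seeing the data, counts were 3 in mCtx against mNPC chromatin, its interaction, mCtx chromatin against cytoplasm and nucleoplasm and mESC chromatin against nucleoplasm, 1 in the interaction with mESC and 0 in mCtx against mESC nucleoplasm.

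With a common floor (values under 59.1 RPM set to it), counts were 5 in mCtx against mESC chromatin (3 higher, 2 lower) and its interaction, and 0 in each nucleoplasm comparison between cell types or with cytoplasm. Without a filter mCtx against mESC chromatin gave 5 and its interaction 4. With the groups of the contrast alone mESC chromatin against nucleoplasm gave 3; several nucleoplasm contrasts then held no tested member and gave no value. Pseudocount 0.1 and zeros beside 2 high replicates set to missing (72 values, added after seeing the data) each gave 2 in mNPC and in mCtx against mESC nucleoplasm, and the latter also 2 in mESC nucleoplasm against cytoplasm; size factors gave 2 in mCtx against mESC nucleoplasm. Scaled to snoRNA reads the counts were 5 in mCtx against mESC nucleoplasm, 2 in mNPC against mESC nucleoplasm and mESC nucleoplasm against cytoplasm, and 1 in the interaction with mESC. The cause was not tested.

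Leaving out 1 library gave 5 to 8 members in mNPC against mESC chromatin (8 without mESC replicate 3), 6 in each case in mCtx against mNPC chromatin and 3 to 5 in mCtx against mESC chromatin (5 without mESC replicate 3). In nucleoplasm it gave 1 to 2 in mNPC against mESC and in mESC against cytoplasm (2 without any of the 3 mESC nucleoplasm libraries), 2 to 3 in mCtx against mNPC and 2 to 4 in mCtx against mESC (4 without mESC replicate 1). AF357341 in mCtx nucleoplasm lost its call against mNPC without any 1 of the 6 libraries, and likewise its call against cytoplasm.

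Whether replicate numbers pair libraries was not settled: within a cell type, deviations of 27 same-number pairs correlated from -0.12 to 0.187 (median 0.0512, 8 over 0.1), and those of 54 pairs with different numbers had a median of -0.0241 (2 over 0.1). Not every same-number pair passed 0.1, so the numbers were not taken as pairs. A replicate block gave the same count in 30 of 31 refits, the exception being mCtx nucleoplasm against cytoplasm (2 with the block within cell type, 3 without). Of 28 reversals of single members, 27 were of values that did not pass before or after. In mCtx against mESC chromatin, with the same values in the interaction, Gm24895 turned to 1.07 (snoRNA reads), 0.68 (size factors) and from -0.08 to 0.10 with 1 library left out, Gm22981 to 0.14 (snoRNA reads) and from -2.55 to 0.93 with 1 library left out, DQ267100 to -0.50 (common floor) and Gm25854 to -0.52 (miRNA reads). In nucleoplasm AF357341 turned to -0.04 and Gm25854 to -0.10 (common floor) and, with 1 library left out, from -0.50 to 2.6. In mCtx chromatin against nucleoplasm DQ267100 turned to -1.46 (snoRNA reads) and from -0.43 to 3.25 with 1 library left out, AF357341 to 0.05 (pseudocount 10) and 0.65 (common floor), and AF357425 to -0.08 (snoRNA reads).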
